A study of Mus musculus with 14 samples.

Results

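The 10 genes of hepatic fatty acid synthesis (Acly, Acss2, Me1, Acaca, Acacb, Fasn, Srebf1, Mlxipl, Thrsp and Pnpla3) were followed in mouse liver, out of the 19751 genes that could be named on the array. They were found through the RefSeq accession of each array feature, a feature being a distinct oligonucleotide of the array, and 18 of 39429 features belonged to them. Liver RNA came from male and female CD1 mice, an outbred stock, aged 3, 4 or 8 wk, which gave the groups M3, F3, M4, F4, M8 and F8 (M for male, F for female, with the age in weeks). No group received a drug or carried an engineered allele, and the pups were bought with surrogate mothers. Each pool held RNA of 5 mice (3 wk) or 6 mice (4 wk and 8 wk), with 2 pools for each group, so that mouse-to-mouse variation was not measured. Pairs of groups were set against each other on 2-colour Agilent arrays in 7 comparisons, the sexes at each age (M3/F3, M4/F4 and M8/F8), adult against younger males (M8/M3 and M8/M4) and adult against younger females (F8/F3 and F8/F4), each with 2 arrays made from separate pools with the dyes exchanged.

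The pathway turns surplus sugar into fat. Citrate leaves the mitochondrion and is cleaved by Acly to acetyl-CoA, which Acss2 also makes from acetate, and Me1 supplies NADPH. Acaca and Acacb carboxylate acetyl-CoA to malonyl-CoA, Acaca in the cytosol for synthesis and Acacb at the mitochondrial surface, where its product restrains the uptake of fatty acids for oxidation. Fasn assembles palmitate from malonyl-CoA. Srebf1, which responds to insulin, and Mlxipl (ChREBP), which responds to glucose, are the transcription factors known to drive these genes, Thrsp (Spot 14) is a small nuclear and cytosolic protein of lipogenic tissue, and Pnpla3 is a lipid droplet protein whose transcript is known to follow feeding.

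The sequence just before the annotated gene is shown for Acly, Thrsp and Pnpla3, members whose windows begin outside the annotated gene (RefSeq, GRCm38.p6). Acss2, Me1 and Mlxipl also have such a window and are not shown. Capitals mark the CCAAT box (CCAAT or ATTGG) and the GC box (GGGCGG or CCGCCC), which were searched on both strands without overlap between them. The Acly window is chr11:100528001-100528250 on the minus strand, the Thrsp window is chr7:97417551-97417800 on the minus strand, and the Pnpla3 window is chr15:84167566-84167775 on the plus strand. All run 5′ to 3′ and end at the base before the gene. For Pnpla3 the listed start lies inside the gene, and the 40 bases between were left out.
Acly: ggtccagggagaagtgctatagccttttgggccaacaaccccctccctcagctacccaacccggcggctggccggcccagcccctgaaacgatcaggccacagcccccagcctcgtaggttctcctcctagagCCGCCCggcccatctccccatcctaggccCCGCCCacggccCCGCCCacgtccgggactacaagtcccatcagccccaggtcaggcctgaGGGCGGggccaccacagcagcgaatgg
Thrsp: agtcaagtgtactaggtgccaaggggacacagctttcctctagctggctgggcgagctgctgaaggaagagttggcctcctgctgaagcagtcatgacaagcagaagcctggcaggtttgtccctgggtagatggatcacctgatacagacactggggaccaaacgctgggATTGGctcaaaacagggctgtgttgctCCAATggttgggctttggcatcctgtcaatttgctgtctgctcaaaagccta
Pnpla3: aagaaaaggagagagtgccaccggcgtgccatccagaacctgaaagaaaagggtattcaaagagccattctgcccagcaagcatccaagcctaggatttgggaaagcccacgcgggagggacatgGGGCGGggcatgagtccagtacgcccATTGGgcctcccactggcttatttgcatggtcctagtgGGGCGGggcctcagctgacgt
In the 250 bases before the start, 9 of the 14 annotated promoters of the 10 genes held a CCAAT box, against 33.9% of 32851 promoters, and 7 of 14 held a GC box, against 32.7%. Acly had 4 GC boxes and no CCAAT box, Thrsp had 2 CCAAT boxes and no GC box, and Pnpla3 had both kinds. The E-box CACGTG was found for Mlxipl alone (6.02% of all promoters). The sterol regulatory element TCACNCCAC (1.05% of all promoters) was also found for Mlxipl alone, but in a different window, which lies inside the gene. These matches describe letters in a short window. The windows listed for Fasn, Acaca, Acacb and Srebf1 begin at starts inside the annotated gene. The same holds for the Mlxipl window with the sterol regulatory element and for a further window of Me1.

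In each channel 55.2% to 77.2% of the spots were well above background, no spot was saturated, and no spot of these 10 genes was left out as an outlier. The 14 arrays lay on 4 slides. The comparisons of the sexes and M8/M3 shared slides, and M8/M4 and both female age comparisons shared others. The 2 replicates of each comparison were on separate slides. The same 12 pools served several comparisons, so those with a group in common are not independent of each other. All 7 hepatocyte markers (Alb, Apob and others) were well above background in every group. Adipocytes also express this pathway strongly. Of the 6 adipocyte markers 1 or 2 were well above background, and their summed level per channel was 3427 to 8654 intensity units in M8 and 3659 to 6926 in the other groups. None of the 6 was called in limma in any comparison (at most 2 at an unadjusted p below 0.05), while their median ratio was 0.70 in M8/F8 (from 0.00 for Lep to 4.73 for Cfd), 1.15 in M8/M3, -0.13 in F8/F3, -0.85 in F8/F4, where all 6 lay below 0, and 2.11 in M8/M4 minus F8/F4, where all 6 lay above 0. In each of the 7 comparisons at least 3 of the 6 were not well above background in either group, so these medians rest in part on values at the floor. Their part in the results was not tested. In whole liver, fewer cells that express a gene cannot be told apart from less of its RNA per cell. Ratios are log2 throughout, and a call required an adjusted p below 0.05 in limma together with a change of more than 1.5-fold.

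At 3 wk, before puberty, most male over female ratios lay above 0, and 1 gene passed the test. The log2 M3/F3 ratio was above 0 on both arrays for 9 of the 10 genes, and its median was 0.62, against 0.00 for all features measured. Without the first M3/F3 array the median was 0.16 after the dye term, with 8 genes above 0, and without the second it was 0.97, with all 10 above 0. Acly was up regulated in males and was the only gene called, while 0.168% of all features were called up in this comparison. 6 of the genes exceeded 1.5-fold, the same number reached an unadjusted p below 0.05, and error-weighted averaging of the 2 arrays called 6.

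**Figure D1:**
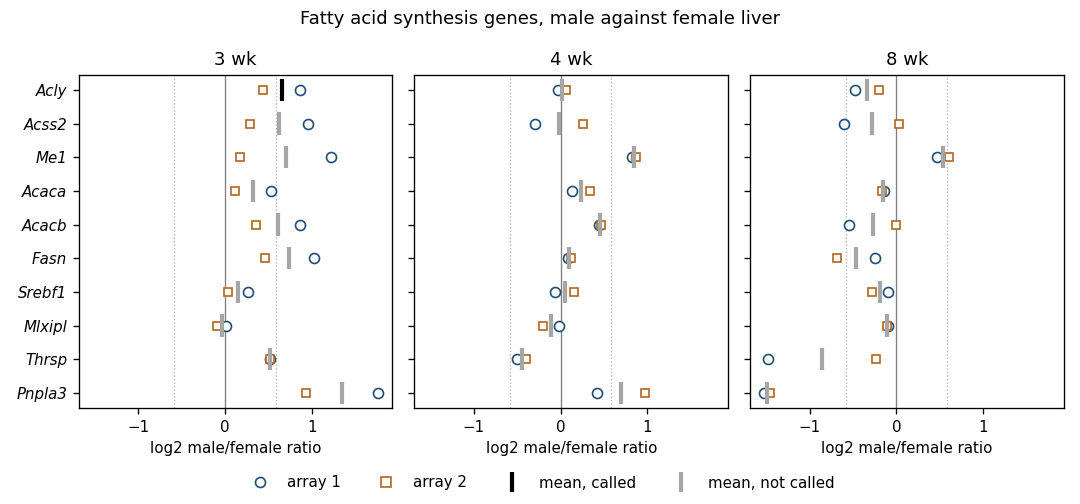
Log2 male over female ratio of each gene (x axis) at 3, 4 and 8 wk (panels). Circles and squares are the 2 arrays, bars their mean (black where called), and dotted lines mark 1.5-fold; at 3 wk 9 of 10 genes lie above 0 on both arrays and at 8 wk 8 of 10 lie below 0 on both.

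Acly, the source of cytosolic acetyl-CoA, had ratios of 0.87 and 0.44 on the 2 arrays (mean 0.65 ± 0.30 (SD, n = 2), 1.57-fold, limma adjusted p = 0.0357). Acss2 had ratios of 0.96 and 0.29, with a mean of 0.62 (limma adjusted p = 0.20). Me1 read 1.22 and 0.18, with a mean of 0.70 (limma adjusted p = 0.152). For all 3 suppliers of substrate and reducing power the first array gave the larger difference.

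The carboxylase Acaca had ratios of 0.53 and 0.12, and Acacb, its mitochondrial counterpart, 0.86 and 0.36. Fasn read 1.02 and 0.46 (mean 0.74 ± 0.40 (SD, n = 2), 1.67-fold, limma adjusted p = 0.0722), which placed it at percentile 99.7 of all features. Of the regulators, Thrsp had 0.52 and 0.51, Srebf1 0.27 and 0.04, and Mlxipl, the only member not above 0 on both arrays, 0.01 and -0.09. The mean ratios of the 2 transcription factors were thus the lowest of the 10 genes.

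Pnpla3 showed the largest ratios at this age, 1.77 and 0.94 (mean 1.35 ± 0.59 (SD, n = 2), 2.56-fold, limma adjusted p = 0.109). Its second, dimmer feature gave a 2.15-fold difference and was called. The call of Acly was lost without the first M3/F3 array (ratio 0.34 after the dye term), and with any array of the other comparisons but F8/F3 left out, while without the second M3/F3 array Acly, Me1, Acaca and Pnpla3 were called. With a replicate block 3 genes were called (Acly, Fasn and Pnpla3). With the slide as a block Fasn and Pnpla3 were called and Acly was not.

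At 4 wk none of the 10 genes was called between the sexes in limma, with 1 at an unadjusted p below 0.05 and 2 called by error-weighted averaging, while 1.44% of all features were called. The median ratio was 0.07. Me1 had the highest mean, with values of 0.82 and 0.87 (mean 0.85, 1.80-fold, limma adjusted p = 0.0926). Pnpla3 read 0.42 and 0.98 and Acacb 0.44 and 0.46, and Thrsp -0.50 and -0.40. For Acly (-0.03 and 0.06) and Fasn (0.08 and 0.12) both arrays lay close to 0.

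At 8 wk most ratios lay below 0, although none passed the test. Of the 10 genes, 9 had a mean M8/F8 ratio below 0, 8 of them on both arrays, and the median was -0.28 against 0.01 for all features, -0.41 for the 7 hepatocyte markers and -0.59 for the 5 Kupffer cell markers, 3 of which were called down. The count of 0 calls in limma came with 2 at an unadjusted p below 0.05 and 2 called by error-weighted averaging, in a comparison that called 6.31% of all features in either direction and 3.49% down. Pnpla3 had ratios of -1.52 and -1.45 (mean -1.49 ± 0.05 (SD, n = 2), 2.81-fold lower in males, limma adjusted p = 0.0814), and it was called with a replicate block and on its second feature, at -1.21. Thrsp read -1.48 and -0.24, and Fasn -0.25 and -0.68. These 2 genes were lower in males on both arrays, with values that differed widely between the pools. Me1 was the exception, at 0.47 and 0.61, and was higher in males on both arrays at every age.

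The age comparisons were made within each sex. In males, 5 of the 10 genes were called down regulated by 8 wk relative to 3 wk (Acly, Acaca, Fasn, Srebf1 and Pnpla3) and none up, against 8.55% of all features called down. The median M8/M3 ratio was -0.74, while that of all features was 0.02. In females no gene was called in F8/F3, and the test of the difference between the sexes, given below, called none either.

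**Figure D2:**
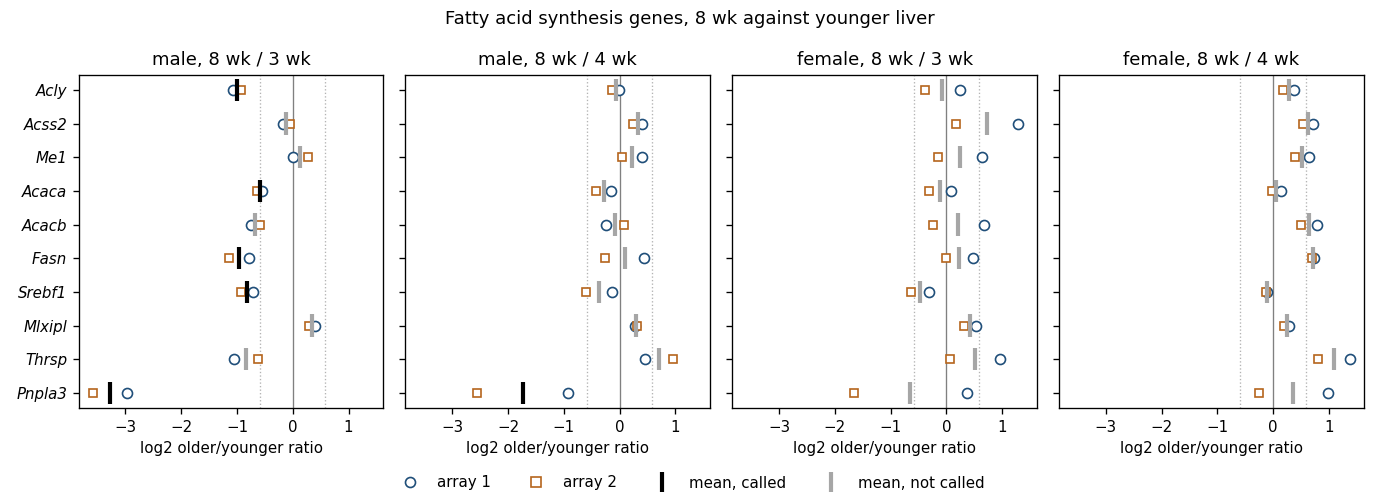
Log2 ratio of 8 wk over the younger age for each gene (x axis), in males against 3 and 4 wk and in females against 3 and 4 wk (panels). Circles and squares are the 2 arrays, bars their mean (black where called) and dotted lines 1.5-fold; the called means lie in the male panels alone, 5 in M8/M3 and 1 in M8/M4.

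Among the enzymes, Acly had M8/M3 ratios of -1.08 and -0.94 (mean -1.01 ± 0.10 (SD, n = 2), 2.01-fold lower at 8 wk, limma adjusted p = 0.00702). Fasn had -0.78 and -1.14 (mean -0.96 ± 0.26 (SD, n = 2), 1.95-fold, limma adjusted p = 0.0294). Acaca had -0.55 and -0.64 (mean -0.59, 1.51-fold, limma adjusted p = 0.0219) and stood just past the fold threshold. All 3 were lower at 8 wk on both arrays. Acacb, at -0.74 and -0.59, was not called (limma adjusted p = 0.119), and Acss2 (-0.17 and -0.06) and Me1 (0.00 and 0.27) stayed near 0.

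Of the regulators, Srebf1 had ratios of -0.71 and -0.92 (mean -0.82 ± 0.15 (SD, n = 2), 1.76-fold, limma adjusted p = 0.00584). Thrsp read -1.06 and -0.62 and was not called (limma adjusted p = 0.136). Mlxipl went the other way, at 0.39 and 0.30 (mean 0.34, 1.27-fold, limma adjusted p = 0.0153), a change under the fold threshold. The 2 transcription factors of the pathway therefore had opposite signs in males.

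Pnpla3 had the largest change, -2.98 and -3.59 (mean -3.28 ± 0.43 (SD, n = 2), 9.74-fold lower at 8 wk, limma adjusted p = 0.00454), at percentile 0.47 of all features. Its second feature gave -2.24 and was also called. Without the first M8/M3 array 2 genes were called (Srebf1 and Pnpla3) and without the second 2 (Acly and Pnpla3), and with normexp and loess normalization Acaca, at -0.56, fell short of the fold threshold.

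Against 4 wk, Pnpla3 was the only gene called in males, down regulated with ratios of -0.92 and -2.56 (mean -1.74 ± 1.16 (SD, n = 2), 3.34-fold, limma adjusted p = 0.0489), and 5.43% of all features were called down. The call was lost with 11 of the 14 arrays left out in turn, including both M8/M4 arrays, and without the dye term, and the second feature, at -1.06 (2.08-fold, limma adjusted p = 0.0573), was not called. The median over the genes was 0.01. Thrsp had 0.46 and 0.96, higher at 8 wk than at 4 wk on both arrays but not called (limma adjusted p = 0.202), and Mlxipl had 0.28 and 0.32 (limma adjusted p = 0.0266, 1.23-fold). With the M8 pools as the link, the M4/M3 difference was below 0 for 9 of 10 genes with a median of -0.52 and was called for none in limma, with 5 at an unadjusted p below 0.05, against 0.231% of all features. Thrsp (-1.55), Pnpla3 (-1.54), Fasn (-1.05) and Acly (-0.93) had the lowest values, and for Acly and Fasn these lay close to the M8/M3 ratio.

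In females no gene was called in F8/F3 in limma, with 3 at an unadjusted p below 0.05 and 1 (Acss2) called by error-weighted averaging, while 10.8% of all features were called. The median ratio was 0.23, and a single array decided its sign, with -0.22 without the first F8/F3 array and 0.50 without the second. Mlxipl had 0.53 and 0.32 (mean 0.42, 1.34-fold, limma adjusted p = 0.00684) and Srebf1 -0.30 and -0.62 (mean -0.46, 1.38-fold, limma adjusted p = 0.0479), both under the fold threshold and both with the sign they had in males. For Pnpla3 the arrays disagreed, with 0.37 and -1.66, and likewise for Fasn, with 0.48 and -0.01, and Acly, with 0.25 and -0.39.

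Between 4 and 8 wk the female ratios were mostly above 0. 9 genes had a mean F8/F4 ratio above 0, 7 of them on both arrays, and the median was 0.44. None was called in limma, with 4 at an unadjusted p below 0.05 and 4 called by error-weighted averaging, against 5.41% of all features. Thrsp had 1.38 and 0.81 (mean 1.09 ± 0.40 (SD, n = 2), 2.13-fold, limma adjusted p = 0.0631), Fasn 0.74 and 0.70 (mean 0.72, 1.65-fold, limma adjusted p = 0.0792) and Acacb 0.79 and 0.50. The dimmer feature of Acacb, at 0.87, was called, and Fasn was called with a replicate block. F4/F3 through the F8 pools was below 0 for 8 genes with a median of -0.35, and none was called in limma or had an unadjusted p below 0.05, against 0.0916% of all features. Without the second F8/F3 array 5 genes were below 0 and the median was -0.02, and without the first 9 were, with a median of -0.69.

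The difference between the sexes in the change from 3 to 8 wk, M8/M3 minus F8/F3, was below 0 for all 10 genes on their main feature. Without the first F8/F3 array it was 0.33 for Me1 and 0.04 for Mlxipl, and without the first M8/M3 array 0.07 for Me1, and the first of these omissions brought Acss2 from -0.84 to -0.35, Acacb from -0.89 to -0.43, Acaca from -0.48 to -0.30 and Srebf1 from -0.35 to -0.23. Without the second F8/F3 array Acss2 was at -1.34 and Acacb at -1.35. For Fasn it ranged from -0.97 to -1.43 and for Pnpla3 from -1.90 to -3.38 with any of the 4 arrays left out. The median was -0.87, that of all features 0.01, and it was -0.39 without the first F8/F3 array and -1.29 without the second. None was called in limma, although 6 had an unadjusted p below 0.05, while 3.22% of all features were called, and the lowest adjusted p values were 0.0722 for Acly (-0.94), 0.0788 for Pnpla3 (-2.64, and -1.64 on its second feature) and 0.0912 for Fasn (-1.20). With a replicate block Fasn and Pnpla3 were called. F8/F3 and M8/M3 lay on different slides. The same quantity taken as M8/F8 minus M3/F3, which shared slides, was -0.99 for Acly, -2.84 for Pnpla3 and -1.20 for Fasn. The matching difference from 4 to 8 wk, M8/M4 minus F8/F4, had a median of -0.35, with -2.10 for Pnpla3, and called none of the 10 genes in limma (1 at an unadjusted p below 0.05) and 1.34% of all features.

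Group levels were estimated from the single channels, in arbitrary intensity units that compare groups for the same gene only. Pnpla3 was at 4714 and 4646 in the 2 M3 pools, 1322 and 2376 in F3, 1106 and 1605 in M4, 1646 and 725 in F8, 841 and 846 in F4, and 581 and 300 in M8. M3 stood above and M8 below every other pool, whereas F3, M4 and F8 overlapped and both F4 pools lay between those of F8. Fasn was at 1138 and 1044 in M3, 791 and 650 in F8, 566 and 737 in F3, 643 and 416 in M8, 459 and 466 in M4, and 459 and 405 in F4. Again M3 was apart from the rest, and neighbours in the order below it had overlapping pools. Acly was at 44100 and 44260 in M3 and between 21960 and 32540 in the pools of the other groups. Mlxipl spanned the narrowest range in relative terms of these 4 genes, from 17530 in a pool of M4 to 25810 in a pool of F8, with both 8 wk groups highest.

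**Figure D3:**
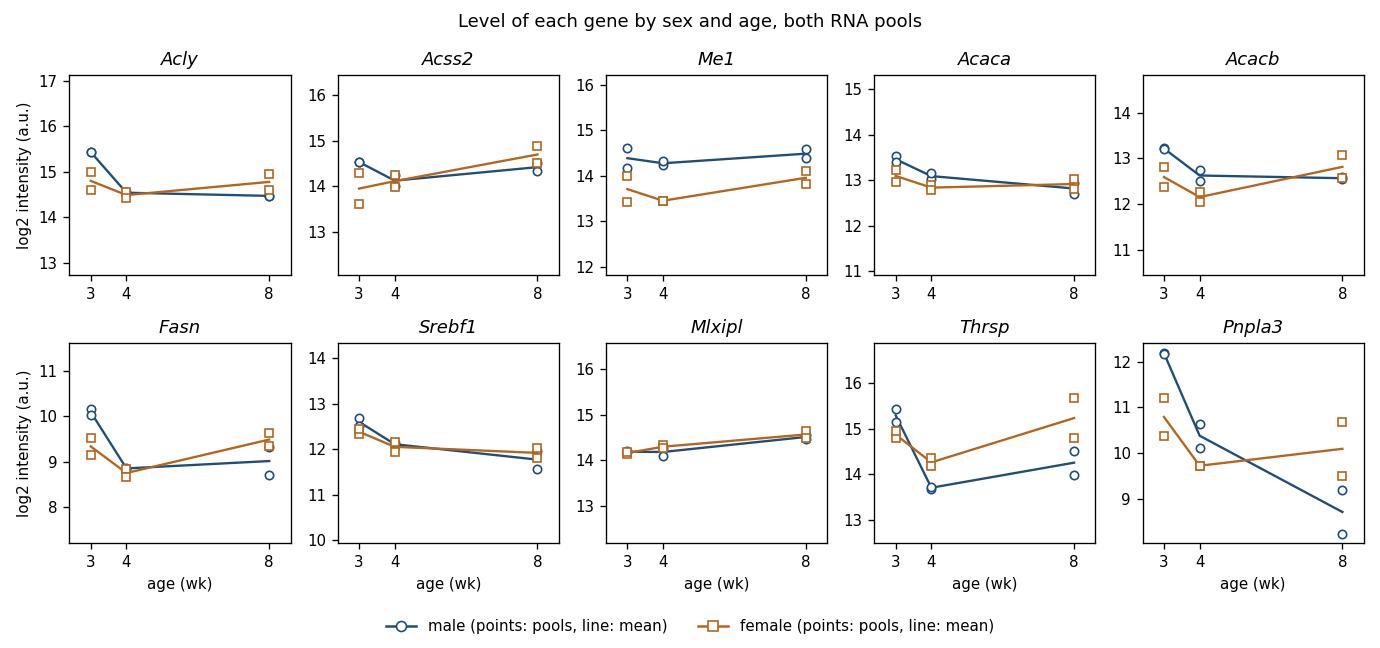
Level of each gene (y axis, log2 intensity in arbitrary units, the same span in each panel) against age in weeks, in males (circles) and females (squares). Points are the 2 pools of a group and lines join the group means; M3 is the highest group for Acly, Acaca, Acacb, Fasn, Srebf1, Thrsp and Pnpla3.

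The 2 pools of a group differed in a shared direction for most genes in some groups. In F3 the first pool was lower than the second for all 10 genes, by a median of -0.38 in log2 units and by as much as -0.85, and in F8 the first pool was higher for all 10, by a median of 0.32 and by as much as 1.18. The F3 pools were each read in both dyes. In F8 the first pool was green and the second red on every array, so pool and dye cannot be told apart there. In M3, where the first pool was red and the second green on every array, the first pool was higher for 7 genes and the median difference was 0.02. The first pool was also higher for 9 genes in F4 (median 0.15) and for 7 in M8 (median 0.15), and the second for 8 in M4 (median -0.05). In M4, as in M3, the first pool was red and the second green on every array, so pool and dye cannot be told apart there either.

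The 8 further features of 6 of the genes had dimmer spots. In M3/F3 all of them were above 0 (from 0.20 for a feature of Acaca that was not well above background in that comparison, with arrays at -0.01 and 0.41, to 0.74 for one of Me1, beside Pnpla3 above) and in M8/M3 those of Acaca, Acacb, Acly and Pnpla3 were below 0, with Acly (-0.87) and Pnpla3 (-2.24) called. Me1 was above 0 in M8/F8 on all 3 of its features, at 0.54, 0.37 and 0.34. For Acaca, a dim feature gave -0.83 and a second -0.56 in M8/M3, neither of them called.

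Genes around the pathway were read in the same fits. Of 6 elongases and desaturases, Scd2 (mean M8/M3 -0.98) and Fads2 (-0.75) were called down in males from 3 to 8 wk, against 8.55% of all features, and Scd2 also in females (F8/F3 -0.95). The elongase Elovl6, whose ratios correlated with those of Pnpla3 over the 14 arrays (Pearson r = 0.94), had a mean M8/M3 ratio of -0.97 without a call (limma adjusted p = 0.11). Of 7 genes of citrate export and NADPH supply, only G6pdx, the entry enzyme of the pentose phosphate pathway, was called down in M8/M3 (-1.01 and -0.61, limma adjusted p = 0.0142), against 8.55% of all features.

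Sugar use upstream of the pathway had median ratios of 0.18 in M3/F3 and -0.20 in M8/M3, against 0.62 and -0.74 for the 10 genes. In F8/F3 its median was 0.24, against 0.23. Of 7 genes only the glucose transporter Slc2a2 was called in the 7 comparisons, up in F8/F3 (0.84 and 0.66), where 10.8% of all features were called in either direction. Pklr, the liver pyruvate kinase and a classical Mlxipl target, was called in M8/M3 minus F8/F3 (-0.85, limma adjusted p = 0.0281), where none of the 10 fatty acid synthesis genes was. It had 0.62 and 0.29 in M3/F3 (limma adjusted p = 0.03), -0.75 and -0.28 in M8/M3 (limma adjusted p = 0.0194) and -0.47 and -0.33 in M8/F8 (limma adjusted p = 0.0474), all under 1.5-fold. Of 7 glyceride assembly genes Lpin1, a phosphatidate phosphatase, was the only one called in the 7 comparisons, up at 8 wk in all 4 age comparisons (1.03 to 1.19), and Gpam, which starts glycerolipid synthesis, was called down in M4/M3 through M8 (-0.82). Among 6 genes for malonyl-CoA removal and AMP kinase none was called in the 7 comparisons in limma, with 4 at an unadjusted p below 0.05 in M8/M3.

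Srebf1 partners and cholesterol synthesis, the branch driven by the related factor Srebf2, were also read. Of 13 regulators beside the 10 genes, Insig2, which retains the SREBP precursor in the endoplasmic reticulum, was the only one called in the 7 comparisons, male-higher at 8 wk (0.79 and 0.40, limma adjusted p = 0.0318). In M8/F8 6.31% of all features were called in either direction. Of 15 genes of cholesterol synthesis, 5 were called down in M8/M3 (8.55% of all features), among them Fdps (-0.81), Mvd (-0.72) and Pmvk (-0.67), and 4 in M8/F8 (3.49% of all features), among them Hmgcs1 (-0.84) and Fdft1 (-0.59). At 4 wk 14 of the 15 were below 0 in M4/F4, with a median of -0.28, and Hmgcs1 (-0.61) was called. The median of that list was 0.18 in M3/F3, against 0.62 for the fatty acid synthesis genes, -0.42 in M8/F8, against -0.28, and -0.63 in M8/M3 minus F8/F3, against -0.87. All 15 were below 0 in M8/F8 and in M8/M3 minus F8/F3, and Fdft1 (-0.77) was called in the latter. Of 10 genes of fatty acid oxidation, 1 was called up and 1, Ehhadh (-0.61), down in M8/M3, where 16.8% of all features were called in either direction, and the median was 0.08.

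Feeding state and time of day are known to move this pathway, and neither the feeding before death nor the hour of death is given in the sources used here. Of 9 genes of the fasting response, Pck1 and Igfbp1 were called female-higher at 3 wk, against 0.464% of all features called in either direction. Pck1, the gluconeogenic enzyme that insulin lowers, had M3/F3 ratios of -1.21 and -1.18 (mean -1.19, limma adjusted p = 0.0123). Igfbp1 had -1.59 and -2.50 (mean -2.04, limma adjusted p = 0.0481). Their signs were opposite to those of Fasn and Pnpla3 on both arrays. In M8/M3 Pck1 was called up (1.13 and 1.58, limma adjusted p = 0.00753) and Fgf21 down (-1.58), beside Lpin1. In F8/F3 Lpin1 (1.19) and Ppargc1a (0.82) were called up and Fgf21 down (-1.34), with Pck1 at 0.59 and 0.42 without a call. In M4/F4 Fgf21 was called male-higher (1.59 and 1.58) and Ppargc1a female-higher (-1.19 and -1.02).

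**Figure D4:**
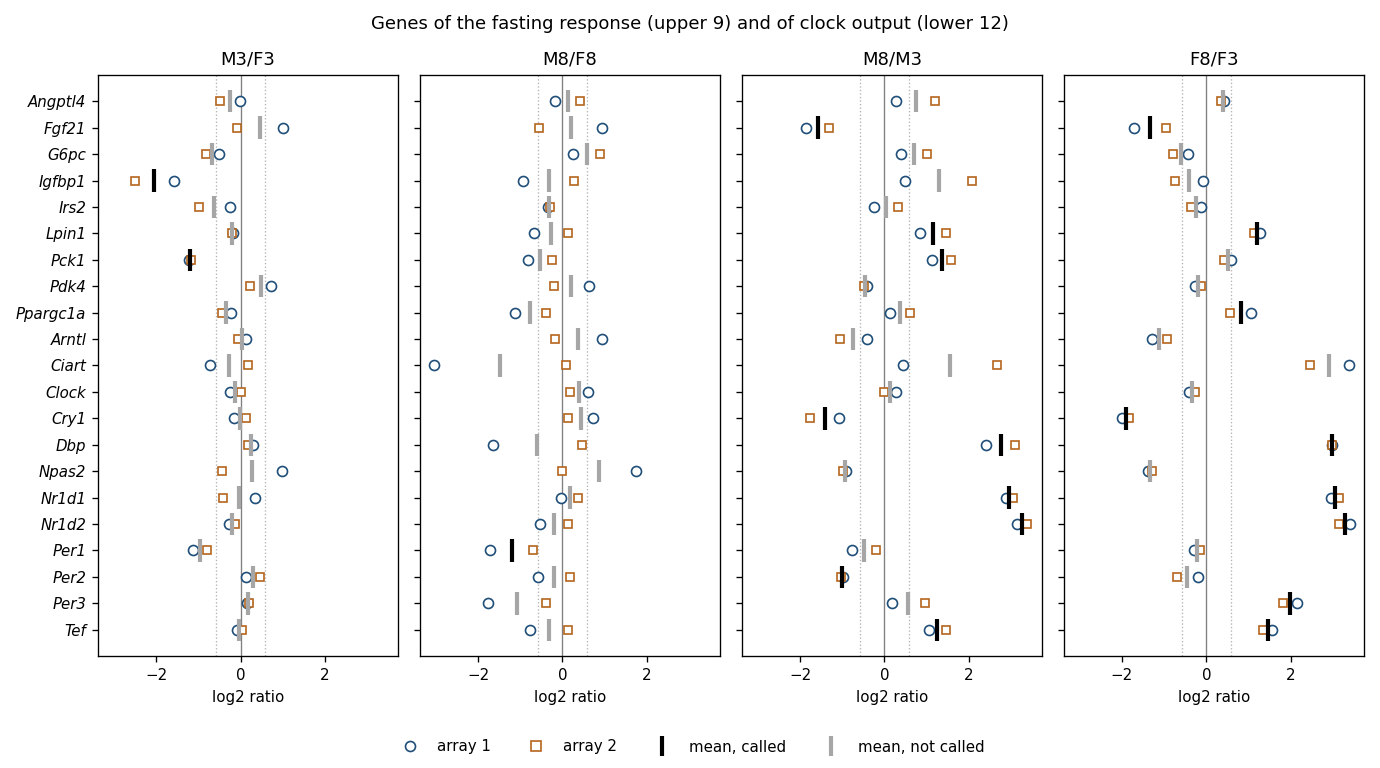
Log2 ratios (x axis) of 9 genes of the fasting response and 12 of clock output in M3/F3, M8/F8, M8/M3 and F8/F3 (panels). Circles and squares are the 2 arrays and bars their mean (black where called); Pck1 and Igfbp1 lie on the female side in M3/F3, and Dbp, Nr1d1 and Nr1d2 lie far above 0 in both age panels.

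Of 12 clock output genes, 4 were called up and 2 down in M8/M3, where 16.8% of all features were called in either direction, and 5 up and 1 down in F8/F3, against 10.8%. Nr1d1, a repressor that peaks by day, had M8/M3 ratios of 2.87 and 3.04 and F8/F3 ratios of 2.95 and 3.13, and Dbp had means of 2.75 and 2.98. The difference M8/M3 minus F8/F3 ran from -1.42 for Per3 to 0.49 for Cry1 and was called for none of the 12 in limma (1 at an unadjusted p below 0.05). In M3/F3 none of the 12 was called, and in M8/F8 Per1 was (-1.20). On the first M8/F8 array Dbp was at -1.65 and on the second at 0.47. The part of feeding and of clock phase in the ratios of the fatty acid synthesis genes was not tested.

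Some Kupffer cell and erythroid markers were called with age. Of 5 Kupffer cell markers 2 were called down in M8/M3 (median -0.44), where 8.55% of all features were called down. In F8/F3 1 was called down (median -0.16), against 1439 of 26059 features. Their summed level was 15370 to 20160 in M8 against 23710 to 27530 in M3 and 24400 to 27840 in F8. Of 5 erythroid markers 4 were called down in M8/M3 and 4 in F8/F3, while Alas2 was called up in M8/M3 (1.37), M8/F8 (1.89) and M8/M3 minus F8/F3 (1.64). The summed level of these 5 was 10430 to 13270 in M8, 6103 to 7240 in M3, 2429 to 4335 in F8 and 4434 to 6356 in F3. Of the 4 pancreatic acinar markers 2 were well above background in each group, Ctrb1 was called up in M8/F8 (0.59), M8/M3 (0.72) and M8/M4 (1.02), and Cela1 down in M8/M3 (-0.69) and F8/F3 (-0.83). The part of all these markers in the results was not tested.

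Over the 14 arrays, the genes whose ratios ran most like those of Fasn were Mid1ip1 (Pearson r = 0.93), Ces1d, Lss, Fmo4, Cyp39a1 and 9930014A18Rik (r = 0.91). Mid1ip1 is the paralogue of Thrsp and a partner of the carboxylases. Those most like Pnpla3 were Pls1 (r = 0.95), Ebi3, Tmem139, Pter, Elovl6 and Gata3 (r = 0.94). The 3077 candidates were well above background in every channel and varied between arrays, and the 14 ratios share pools, so these values describe likeness only.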

How the data were processed

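Per the file headers, the authors hybridized 2-colour Agilent whole mouse genome arrays and deposited, from Agilent Feature Extraction 10.7.1.1, the spot and background intensity without normalization, the processed intensity, and the log10 ratio of red over green with its error, which the software computes on background-subtracted signals after a linear and a LOWESS correction for dye. The deposited value matrix held identical log10 ratios (largest difference 0). Here ratios were converted to log2, turned to male over female or older over younger by the dye that the labels give each channel, spots flagged as outliers were left out and spots of a feature averaged. The feature with the highest mean signal stood for a gene. The methods' example for M3/F3 has the dyes of both arrays the other way round. As labelled, the Y-linked Ddx3y was male-higher (5.80 to 7.24) and Xist female-higher (-6.67 to -5.10) on all 6 arrays that compare the sexes, and Afp, a fetal liver gene, was lower at 8 wk on all 8 age arrays (-3.24 to -0.58).

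All 39429 features were fitted together in limma 3.58.1 (R 4.3.3, with files read by version 1.17.8 of data.table), with a coefficient for each comparison and a dye term, after a check on simulated data. Benjamini-Hochberg adjustment ran over all features and the 7 comparisons, and over all features for each difference between comparisons. A call needed an adjusted p below 0.05, a change over 1.5-fold, and a group that both arrays measured as well above background. The averaging of the Rosetta software that the authors used was approximated with the deposited errors at an unadjusted p of 1e-04. Levels came from single channels after quantile normalization of the average intensity. Same-numbered arrays deviated together round the loops of comparisons (r = 0.913 and 0.904 over 20451 features), so a number marks the pools, which the series' design text says were shared. The p-values rest on the spread between the 2 arrays of each comparison, which hold separate pools, and the number of arrays limits the precision. The fit took all arrays as independent, although comparisons share pools. For M4/M3 and F4/F3 the shared 8 wk pools were likewise treated as separate. The variance between pools was estimated at 2.49 times that between arrays, and counts with pools as random effects are given below. The 10 genes and all other lists were chosen with earlier results of these data known. Named genes are the 10 members, at most 3 called genes of each other list in a comparison with the largest change, and the 6 most like each of Fasn and Pnpla3. These may be given in other comparisons too, and Alb, Apob, Lep, Cfd, Per3, Cry1, Ddx3y, Xist and Afp were chosen after their values were seen. Some genes of the lists are not reported here.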

Additional observations from a re-analysis of the deposited data

How the results depend on the processing

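The counts of called genes are small and several adjusted p values lay near the threshold, so the calls moved with the settings. No called ratio changed sign on another feature of the gene, with normexp and loess normalization, or with an array of the comparison left out. Signs of single genes were not compared under the other settings. In M3/F3 (1 gene called) 3 were called with normexp and loess normalization, 2 with dim features removed before the fit, 0 with adjustment within each comparison, 5 with 6 group levels in place of 7 comparisons, 3 with the replicate block, 2 with the slide as a block and 6 with error-weighted averaging, and 0 to 4 with single arrays left out. In M4/F4 (0) 1 was called with normexp and with 6 group levels, 2 with error weights, and 0 to 1 with arrays left out. In M8/F8 (0) 1 was called with normexp, with dim features removed, with pools as random effects, with the replicate block and with the slide block, 2 with 6 group levels and with error weights, and 0 to 1 with arrays left out. In M8/M3 (5) the count was 2 to 5 with arrays left out and within 1.5 times of 5 under all other settings. In M8/M4 (1) it was 0 without the dye term, 2 without the fold threshold and with error weights, and 0 to 1 with arrays left out. In F8/F3 (0) it was 2 without the fold threshold and 1 with 6 group levels and with error weights. In F8/F4 (0) it was 2 with normexp and with dim features removed, 3 with 6 group levels, 1 with pools as random effects, with the replicate block and with the slide block, 4 with error weights, and 0 to 1 with arrays left out. In M8/M3 minus F8/F3 (0) it was 1 with normexp, with pools as random effects and with the slide block, 2 with dim features removed and with the replicate block, 6 with 6 group levels, and 0 to 1 with arrays left out. In M8/M4 minus F8/F4 (0) it was 2 with 6 group levels, and in M4/M3 through M8 (0) 3 with 6 group levels and 2 with pools as random effects. The replicate block changed the count in no other comparison by over 1.5 times. The cause of these moves was not tested, apart from the fewer arrays that leaving 1 out leaves. In all, 498 ratios of single genes were read on another feature, with normexp and loess normalization, or with an array left out. Among called values 0 reversed, 14 lost a call and 13 gained one. A further 102 without a call moved by more than the SD of the 2 arrays, or by more than the limma standard error for a difference between comparisons. The remaining 369 did none of these.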
